A study of Homo sapiens with 6 samples.

Results

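The intracellular 5'-nucleotidase family was examined in tumors grown in mice from MDA-MB-231, a line of human breast cancer cells without hormone receptors or HER2 amplification. The genes were taken by name: NT5C2, NT5C, NT5C3A, NT5C3B, NT5M, NT5DC1, NT5DC2 and NT5DC3, which are 8 of 60671 annotated genes in the matrix. All 8 were above the limit for testing, at least 1 TPM (a transcript level corrected for length and scaled to a common total, 1000000 here except for 994381 in TM replicate 3) in at least 3 samples. The cells, wild type by their labels, had been placed orthotopically, 200000 per injection, in the mammary fat pads of female NSG mice aged 6 to 8 weeks. RNA-seq was performed on the tumor core (TC, 3 samples) and the tumor margin (TM, 3 samples). Each sample of a zone came from its own mouse according to the study's legend. NSG mice lack T, B and NK cells but keep myeloid and stromal cells, so the tissue also holds mouse RNA, and no step that parts mouse from human reads was described. Whether a TC and a TM sample with the same number came from one tumor was not stated.

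A 5'-nucleotidase removes the phosphate from a nucleoside monophosphate and so turns a nucleotide that is held in the cell into a nucleoside that can leave it. NT5C2 (cytosolic nucleotidase II) prefers IMP and GMP and yields inosine and guanosine. NT5C and NT5M are deoxyribonucleotidases of the cytosol and the mitochondrion, NT5C3A acts on pyrimidine nucleotides, and NT5C3B acts on 7-methylguanosine monophosphate. NT5DC1, NT5DC2 and NT5DC3 carry a nucleotidase domain related to that of NT5C2, and their substrates are not well established. The study concerned inosine in the glucose-poor core, and NT5C2 is an enzyme that can supply it.

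The place where NT5C2 RNA starts was looked at first. The level in the matrix sums all its transcripts, whereas the human primers listed for PCR read some of them. The study described PCR of this gene in core and margin for tumors of mouse cells and for patient tumors. No such PCR was described for the tumors sequenced here, and no PCR value was compared with the matrix. NT5C2 lies on the minus strand of chromosome 10, from 103088017 to 103193306 (GENCODE v29, GRCh38), and RefSeq gives 3 start windows for it. The forward primer matched 5 of 14 annotated transcripts, the reverse primer 4 and the pair 3, with a product of 164 bases. The forward primer lies at 103193242 to 103193259, within the window of the outermost start, and begins 14 bases after that start. The reverse primer spans a splice junction, with 5 bases at 103174858 to 103174862 and 15 bases at 103139465 to 103139479. Both inner start windows lie downstream of the forward primer, so RNA begun there does not hold its site. These are the primers, 5′ to 3′:
NT5C2 forward: gattgttgcggtgcgctg
NT5C2 reverse: cggttcacaaacacccgatg

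The window of the outermost start is shown with that of NT5DC3, the member with the widest difference between the zones. Each holds 250 bases before and 50 bases after a start (RefSeq, GRCh38.p14, minus strand, read 5′ to 3′), and capitals mark GC boxes, the letters GGGCGG or their reverse complement CCGCCC. The windows are chr10:103193223-103193522 for NT5C2 and chr12:103841185-103841484 for NT5DC3.
NT5C2: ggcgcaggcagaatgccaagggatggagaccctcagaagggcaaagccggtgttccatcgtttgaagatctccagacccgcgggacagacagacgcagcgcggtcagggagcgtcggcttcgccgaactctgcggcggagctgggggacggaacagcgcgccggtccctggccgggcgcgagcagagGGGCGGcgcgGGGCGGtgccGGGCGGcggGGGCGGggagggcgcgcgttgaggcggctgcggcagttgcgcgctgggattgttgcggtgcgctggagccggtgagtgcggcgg
NT5DC3: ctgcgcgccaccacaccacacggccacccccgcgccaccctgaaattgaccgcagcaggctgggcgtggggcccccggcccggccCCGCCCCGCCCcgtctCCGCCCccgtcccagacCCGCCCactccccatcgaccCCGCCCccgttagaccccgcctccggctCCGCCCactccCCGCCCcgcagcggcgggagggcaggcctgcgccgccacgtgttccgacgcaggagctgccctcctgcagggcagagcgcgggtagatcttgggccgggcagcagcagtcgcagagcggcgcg

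The NT5C2 window holds 4 GC boxes in 73% G and C, and the NT5DC3 window holds 7 in 78%. The median G and C of all windows was 58.7%. The inner start windows of NT5C2 hold 0 GC boxes in 29.3% and 31.7% G and C. Across the family, 9 of 11 start windows held a GC box on either strand, against 45.0% of 35116 windows of that length, and every member had at least 1 such window. CCAAT (either strand) was found in 2 of 11, those of NT5DC1 and NT5DC2, against 34.6% of all windows. TATAAA (either strand) was found in 1 of 11, a start of NT5C3A, against 11.5% of all. These matches describe letters, and no factor binding was measured here.

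The family spanned a wide range of levels. NT5C was highest with a mean of 96.2 TPM over the 6 samples, at the 90.2 percentile of the 13861 genes tested, followed by NT5DC2 at 81.6 TPM. NT5C3B (47.0 TPM) and NT5C2 (39.8 TPM) came next, then NT5C3A (20.2 TPM), NT5DC1 (12.7 TPM) and NT5DC3 (9.35 TPM). NT5M was lowest at 1.76 TPM, the 9.91 percentile. NT5C and NT5DC2 overlapped in range and kept their order in 5 of 6 samples, and the same held for NT5C3B and NT5C2. NT5DC1 was above NT5DC3 in 6 of 6 samples although their ranges overlapped, and the other neighbours in this order were apart. Thus NT5C2 RNA was neither the most nor the least abundant of these genes, and NT5C, which takes deoxyribonucleotides, exceeded it in every sample.

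**Figure D1:**
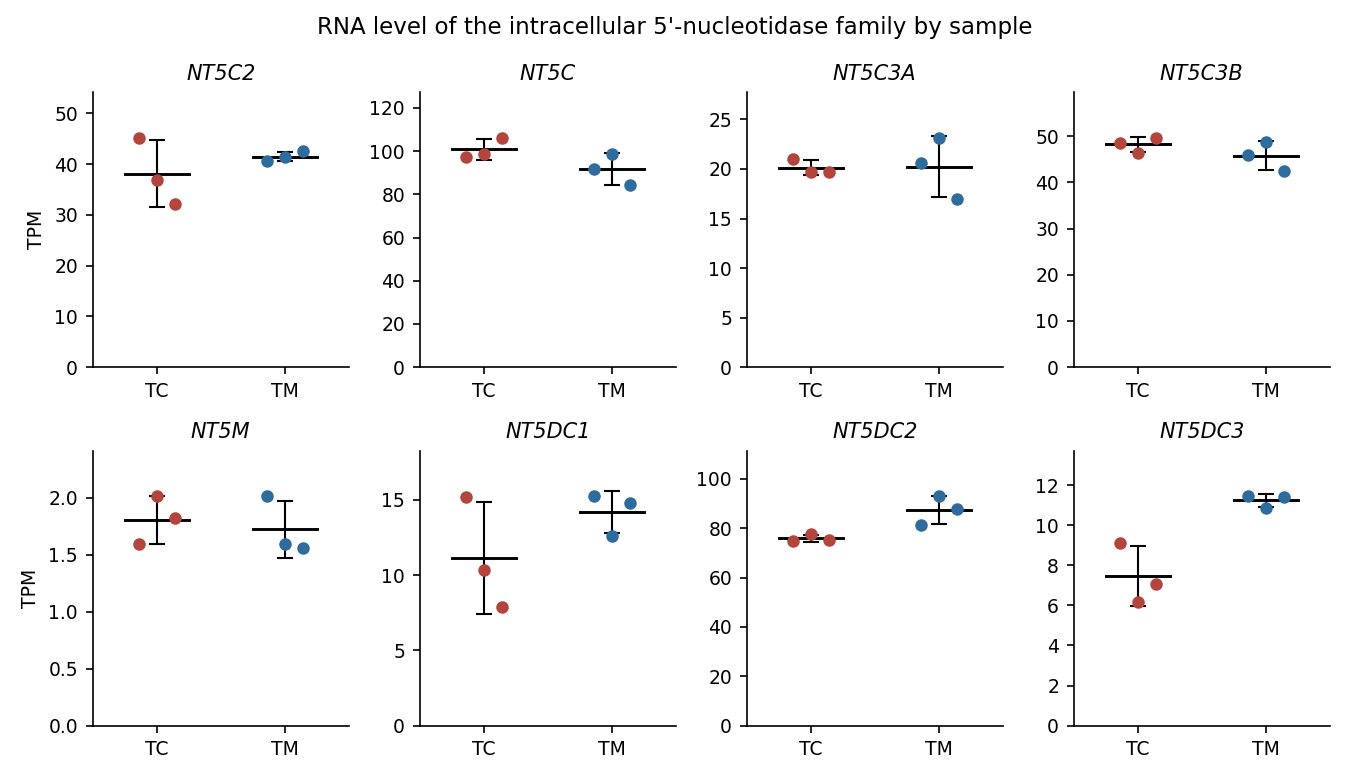
TPM of each of the 8 genes in 3 TC samples (red points) and 3 TM samples (blue points), with the mean (wide bar) and SD (whiskers) and every axis starting at 0. The TC and TM points are apart only for NT5DC2 and NT5DC3. The TC points of NT5C2, NT5DC1 and NT5DC3 are more widely spread than their TM points.

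To ask whether the zones differed, TC was compared with TM by limma on log2(TPM + 1), with p-values adjusted over all 13861 genes. The number of members called at an adjusted p-value under 0.05 was 0 of 8 (smallest adjusted p = 0.235), beside 0.137% of all genes tested. At an unadjusted p-value under 0.05, 1 member was lower in TC (background 14.2%) and 0 were higher (background 1.93%). All TC values lay below all TM values in 2 members (background 18.9%), and 0 members showed the opposite (background 3.28%). The shares of members in these classes rest on 1 or 2 genes and are read only beside the backgrounds. The median log2 difference (TC minus TM) was -0.065 over the members and -0.14 over all genes tested.

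In order of replicate number, the NT5C2 level was 45.2, 36.9 and 32.1 TPM for TC against 40.6, 41.3 and 42.5 TPM for TM. The TC samples lay on either side of the TM samples, so the groups overlapped. The means were 38.1 ± 6.59 TPM in TC and 41.5 ± 0.959 TPM in TM (SD, n = 3). The log2 difference was -0.13 (SE 0.16, 95% interval -0.50 to 0.23, limma adjusted p = 0.744). On that scale the interval runs from 0.709-fold to 1.17-fold of TM, so neither a moderate decrease nor a small increase in the core could be told from no difference. The difference was 0.0021 above the median of all genes, that is, NT5C2 moved as the middle gene of the matrix did. After median-of-ratios rescaling, which centres the samples on their common genes, the log2 difference turned to 0.072 (95% interval -0.26 to 0.40), and after quantile normalization to 0.031 (-0.31 to 0.37).

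NT5C2 was more widely spread in TC than in TM, as were NT5DC1 and NT5DC3, which was not tested and rests on few samples. For NT5C2 the SD of log2(TPM + 1) was 0.24 in TC, near the median of all genes there (0.24), and 0.033 in TM, where 1.37% of genes had a smaller SD. The size of the difference depended on single TC samples, at -0.022 without TC replicate 3 and -0.26 without TC replicate 1, with the same sign. Neither fit gave a call (limma adjusted p = 0.975 and adjusted p = 0.480).

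The other enzymes were close to level between the zones. NT5C was at 97.5, 98.7 and 106 TPM in TC and at 91.9, 98.8 and 84.1 TPM in TM. Its means were 101 ± 4.68 and 91.6 ± 7.35 TPM (SD, n = 3), and TM replicate 2 reached into the TC range. By limma the log2 difference of NT5C was 0.14 with an SE of 0.12 (adjusted p = 0.645). NT5C3B was at 48.6, 46.4 and 49.6 TPM in TC and at 46.0, 48.8 and 42.5 TPM in TM, with a log2 difference of 0.075 (95% interval -0.22 to 0.37, limma adjusted p = 0.832). Both genes were above TM in every TC sample after median-of-ratios rescaling (10.3% of all genes were) and after quantile normalization (8.72% of all genes). Under median-of-ratios rescaling NT5C reached a log2 difference of 0.35 (limma unadjusted p = 0.0482, adjusted p = 0.365).

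NT5C3A, which is best known from red blood cells, was at 21.0, 19.7 and 19.7 TPM in TC and at 20.6, 23.1 and 17.0 TPM in TM. Its TC values fell inside the TM range and its log2 difference was 0.0028 (95% interval -0.38 to 0.39, limma adjusted p = 0.995). NT5M, the mitochondrial enzyme, was at 1.59, 2.01 and 1.82 TPM in TC and at 2.01, 1.59 and 1.56 TPM in TM. The 95% interval of its log2 difference, 0.047, was wide at so low a level, from -0.47 to 0.56 (limma adjusted p = 0.952).

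The 3 NT5DC genes were lower in TC by their means, except that NT5DC2 turned to 0.0099 after median-of-ratios rescaling, and none was called. NT5DC3 was at 9.10, 6.18 and 7.08 TPM in TC and at 11.4, 10.9 and 11.4 TPM in TM. Every TC sample was below every TM sample, with means of 7.45 ± 1.50 and 11.2 ± 0.310 TPM (SD, n = 3), so the TC mean was 33.7% lower. The log2 difference was -0.55 (SE 0.20, 95% interval -1.01 to -0.084, limma unadjusted p = 0.0259, adjusted p = 0.235), which is -0.41 relative to the median of all genes. TC stayed below TM in every sample after median-of-ratios rescaling (9.74% of all genes) and quantile normalization (11.5% of all genes), with log2 differences of -0.36 and -0.35 and intervals that included 0. The unadjusted p-value was above 0.05 in 5 of 6 fits that each left out a sample.

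NT5DC2 was at 74.9, 77.6 and 75.2 TPM in TC and at 81.4, 93.0 and 87.7 TPM in TM. The groups were again apart, but the log2 difference was small, -0.20 (SE 0.12, 95% interval -0.47 to 0.073, limma adjusted p = 0.475). It lay 0.063 below the median of all genes. It became 0.0099 after median-of-ratios rescaling and -0.11 after quantile normalization, and the groups overlapped after each of these. NT5DC1 was at 15.2, 10.3 and 7.90 TPM in TC and at 15.2, 12.6 and 14.8 TPM in TM. TC replicate 1 was level with the highest TM sample and the other TC samples were below all of TM (log2 difference -0.36, SE 0.24, 95% interval -0.93 to 0.20, limma adjusted p = 0.535). The value was -0.16 without TC replicate 3 and -0.59 without TC replicate 1.

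**Figure D2:**
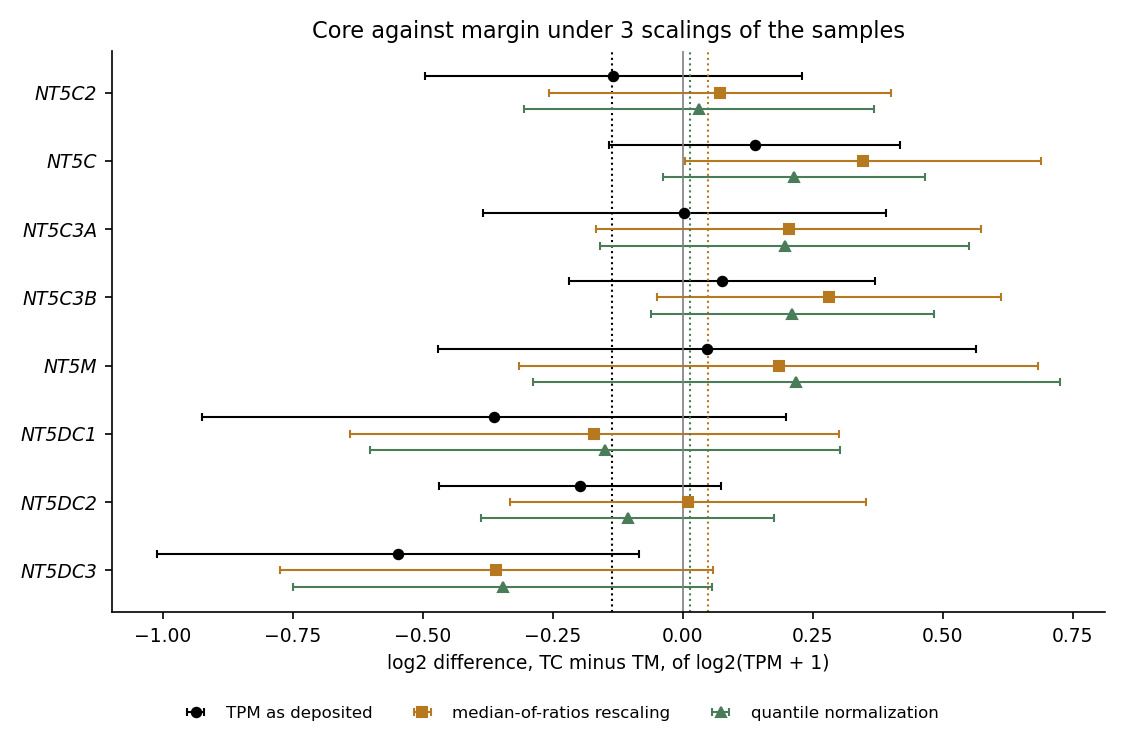
Difference between TC and TM (x axis, TC minus TM of log2(TPM + 1), n = 3 per group) for each gene, with 95% intervals from limma, for TPM as deposited (black circles), median-of-ratios rescaling (orange squares) and quantile normalization (green triangles). Dotted lines give the median of all genes tested under each scaling, and NT5DC3 stays the lowest gene under all 3.

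The makeup of the family, which a single scaling factor per sample cannot change (quantile normalization can), was then compared as shares of the summed TPM of the 8 genes. The 5 enzymes summed to 204 to 214 TPM in TC and to 188 to 214 TPM in TM, which overlapped. The 3 NT5DC genes summed to 90.2 to 99.2 TPM in TC and to 108 to 116 TPM in TM, and NT5DC2 made up most of that sum. Of single genes tested, 18.9% had every TC value below every TM value, and no such share was counted for sums of genes. The sums are of TPM as deposited and were not repeated under the other scalings. After median-of-ratios rescaling and after quantile normalization, NT5DC2 overlapped between the zones, and NT5C and NT5C3B were above TM in every TC sample. The NT5DC genes took 31.7%, 31.6% and 30.1% of the sum in TC against 34.9%, 35.3% and 37.8% in TM, with means of 31.1% ± 0.891 and 36.0% ± 1.54 (SD, n = 3). The share of NT5C was higher in every TC sample, at 33.2% ± 2.14 against 29.2% ± 1.12 in TM (SD, n = 3), as was that of NT5C3B (15.9% ± 0.589 against 14.6% ± 0.423). Shares of a sum are tied, so which of the genes moved cannot be told from them. In TPM as deposited, NT5C and NT5C3B each overlapped between the zones, unlike after the rescalings above. NT5C2 took up 12.5% ± 1.85 of the TC sum and 13.2% ± 0.794 of the TM sum (SD, n = 3), and its shares overlapped. The mitochondrially encoded share of all TPM was also lower in every TC sample, at 6.08% to 8.82% against 9.23% to 11.1% in TM. With those transcripts removed the log2 differences were -0.60 for NT5DC3, -0.25 for NT5DC2 and -0.41 for NT5DC1. The shares within the family were not tested, since the members had been chosen with earlier results known. How often such shares separate in other lists of genes was not counted, so their separation has no background here.

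**Figure D3:**
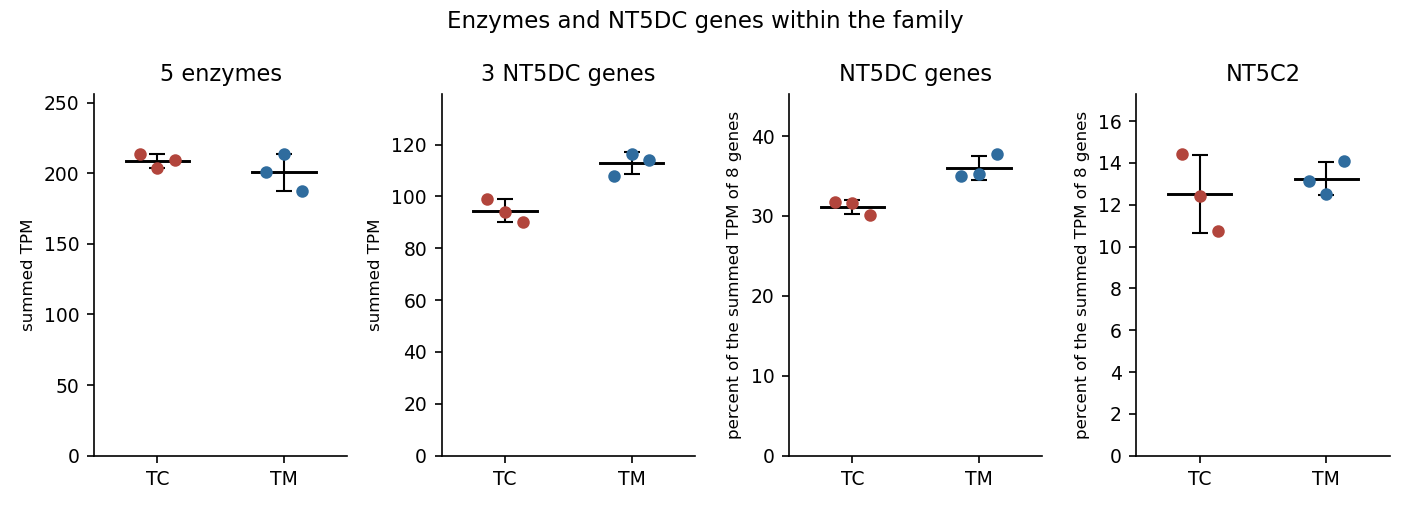
Summed TPM of the 5 enzymes and of the 3 NT5DC genes, and the percent of the summed TPM of all 8 genes taken by the NT5DC genes and by NT5C2, in 3 TC and 3 TM samples (points) with mean and SD. In TPM as deposited, the NT5DC sum and share are lower in each TC sample than in any TM sample, whereas the enzyme sum and the NT5C2 share overlap. The sums depend on how the samples are scaled and were not repeated under other scalings. Of single genes tested, 18.9% had every TC value below every TM value, which is not a count for sums or shares.

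NT5C2 was next set against 5 enzymes that share its metabolites, as TPM ratios within each sample. PNP splits inosine to hypoxanthine, HPRT1 and AMPD2 make IMP, ADA makes inosine from adenosine, and ADK returns adenosine to AMP. The ratio of NT5C2 to PNP stood at 0.279, 0.240 and 0.157 for TC and at 0.161, 0.169 and 0.222 for TM. TC replicates 1 and 2 were above all TM samples and TC replicate 3 was below them (log2 difference 0.27, exact permutation test, two-sided p = 0.4). For AMPD2 the ratio stood at 0.987, 0.641 and 0.612 for TC and at 0.560, 0.528 and 0.627 for TM, and TM replicate 3 exceeded TC replicate 3 (log2 difference 0.35, exact permutation p = 0.2). For HPRT1, ADA and ADK the log2 differences of the ratio were -0.11, -0.18 and -0.29, with exact permutation p = 0.8, 0.5 and 0.5. With 5 ratios tested, Benjamini-Hochberg adjusted values were 0.625 to 0.8, and 3 samples against 3 cannot give a p-value below 0.1.

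**Figure D4:**
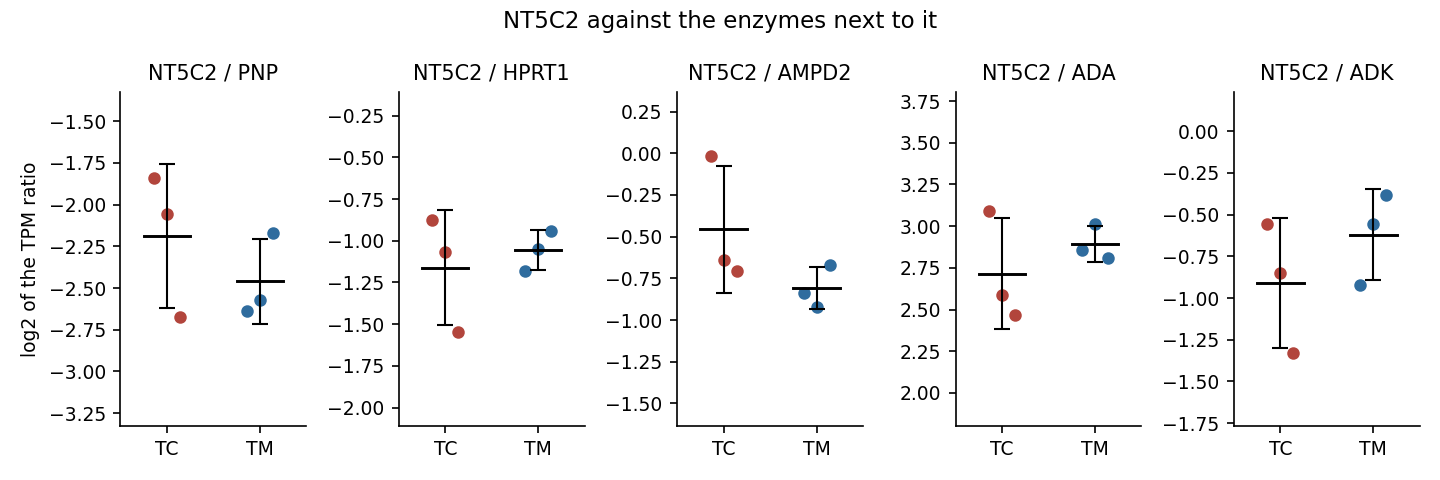
log2 of the TPM ratio of NT5C2 to each of 5 enzymes in 3 TC (red) and 3 TM (blue) samples, with mean and SD; each panel spans the same range of log2 units. The groups overlap in all 5 panels, and the TC samples spread more widely than the TM samples.

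Other genes of nucleotide breakdown and salvage gave the setting. Of 4 further 5'-nucleotidase genes, NT5C1A, NT5C1B and NT5DC4 were at or near 0 (up to 0.35 TPM) and were not tested. NT5E (CD73), the enzyme on the cell surface that releases adenosine, was at 631, 506 and 424 TPM in TC and at 489, 420 and 458 TPM in TM. That overlapped (log2 difference 0.17, SE 0.16, limma adjusted p = 0.659), and its level exceeded the summed TPM of the 8 intracellular genes in every sample. Across 40 further genes 33 were tested, 0 were called, 3 had an unadjusted p-value under 0.05 with a lower TC value, and 1 with a higher. Over all genes tested, 0.137% were called, 14.2% were lower and 1.93% were higher by the same rules. AMPD2 (log2 difference -0.48, limma adjusted p = 0.148), PNP (-0.40, adjusted p = 0.273) and UCKL1, a uridine-cytidine kinase (-0.31, adjusted p = 0.274), were the lower ones. AK4, an adenylate kinase of the mitochondrion, was the higher one (0.38, limma adjusted p = 0.307).

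By group, 1 of 8 nucleoside kinases was lower and 0 higher at an unadjusted p-value under 0.05, and likewise 1 of 9 tested phosphorylases, deaminases and phosphoribosyltransferases. Among nucleotide deaminases and triphosphate hydrolases 1 of 7 tested was lower and 0 higher, and among nucleoside monophosphate kinases 0 of 8 tested were lower and 1 was higher. Each count is 0 or 1 gene and is read only beside the 14.2% and 1.93% of all genes. The median log2 differences of these 4 groups were -0.016, 0.024, -0.066 and 0.090, all above the median of all genes (-0.14).

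The genes whose levels followed NT5C2 most closely over the 6 samples were ZCCHC3 (Pearson r of log2(TPM + 1) 0.992), G3BP2 (0.986), AKAP13 (0.984), ENSG00000258790 (0.983) and NPTN (0.980), out of 9747 genes with a mean of at least 5 TPM. Like NT5C2, each was highest in TC replicate 1 and lowest in TC replicate 3. Within the family NT5DC1 came closest (0.946, place 34), NT5DC3 was at 0.681 and NT5C at -0.63. The points share libraries and their scaling, 6 samples give many high correlations among so many genes, and the values are a description.

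The labels were checked against markers. VIM, KRT8, KRT18, KRT7, CD44 and EGFR, which MDA-MB-231 cells express, summed to 5504 to 7304 TPM, and ESR1, PGR and CDH1 to at most 0.36 TPM. Markers of other tissues differed between libraries, and whether their reads came from mouse or human RNA was not tested. The 14 skeletal muscle markers summed to 5.45 to 8.90 TPM in TC and to 194, 519 and 2.28 TPM in TM replicates 1, 2 and 3, and the 8 fibroblast markers to 63.2 to 222 TPM in TC and to 472, 999 and 85.1 TPM in TM. COL1A1, COL1A2 and COL3A1 made up nearly all of the fibroblast sum, while LUM, PDGFRA and THY1 were at most 0.38 TPM and DCN was at 0 in every sample but TM replicate 1 (4.82 TPM). NT5DC3 in TM replicate 3, the TM library with little of either, was at 11.4 TPM as in TM replicate 1. Without TM replicates 1 and 2 the log2 difference of NT5DC3 was -0.57 (95% interval -1.35 to 0.22, limma unadjusted p = 0.135, adjusted p = 0.514) and that of NT5C2 was -0.17 (-0.74 to 0.40). These rest on 1 TM sample that was assumed to vary like the others, and the part of the marker levels in the NT5DC3 difference was not settled by them. The 8 macrophage markers summed to 95.2 to 107 TPM in TC and 102 to 108 TPM in TM (C1QA and C1QB at 0 in every sample). CD68 carried that sum at 84.8 to 94.2 TPM, and CSF1R was lower in every TC sample (1.99 to 3 TPM) than in any TM sample (3.10 to 9.12 TPM). The latter was so for 18.9% of all genes tested. CD68, LYZ, MRC1 and ADGRE1 (7.92 to 9.34 TPM in TC, 8.97 to 10.5 TPM in TM) overlapped between the zones. The 5 endothelial markers summed to 2.94 to 6.78 TPM, and the 5 adipocyte ones to at most 0.77 TPM (ADIPOQ and LEP at 0). In bulk tissue, fewer cells of a type and less RNA per cell cannot be told apart.

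Neighbouring genes can add reads where they overlap a member. CNNM2 overlaps the 3′ end of NT5C2 by 2205 bases on the other strand and was at 5.19 to 7.21 TPM. SMIM4 overlaps the 5′ end of NT5DC2 by 1042 bases on the other strand and was at 35.4, 55.5 and 52.7 TPM in TC and at 58.3, 42.9 and 24.3 TPM in TM, a pattern unlike that of NT5DC2. ARMC7 (4.53 to 10.1 TPM) overlaps NT5C by 41 bases on the other strand. AC022211.4 overlaps NT5C by 913 bases and STAB1 overlaps NT5DC2 by 111 bases, each on the other strand, and they were at most 1.27 and 1.55 TPM. No gene at 1 TPM or more overlapped NT5C3A, NT5C3B, NT5M, NT5DC1 or NT5DC3. The methods name an orientation mode for the alignment, but whether the library kept strand and reads were assigned to genes by it was not stated, and a contribution of these neighbours was not tested.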

How the data were processed

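RNA was sequenced from TC and TM samples, 3 each, with groups and replicate numbers read from the titles. According to the study's methods, the authors trimmed paired reads with SeqPrep and Sickle, aligned them with HISAT2 (hg38, per the labels), assembled them with StringTie and quantified genes with RSEM. Tool versions and the annotation release were not given in the sources used here. The values are TPM as deposited by the authors, which keep no sequencing depth, so precision rests on replicate spread and the study's count test could not be run. Other value columns numbered 0. The 259 loci outside the annotation were left out.

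Symbols were matched for 60401 genes, and 96.3% of annotated genes were in GENCODE v29. The zones were contrasted with limma 3.58.1 (R 4.3.3; linear model, empirical Bayes with a mean-variance trend, two-sided) on log2(TPM + 1) for genes at 1 TPM or more in at least 3 of 6 samples, with Benjamini-Hochberg adjustment. Differences on this scale understate the change of low genes. Ratios were compared with scipy 1.17.1 and figures drawn with matplotlib 3.10.9. The limma step was run on simulated data as a check of the code, and its power at the differences seen here is not given. Promoter windows were read from RefSeq and primer sequences from the study's primer list.

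The named genes were all members, the partner enzymes, list genes at an unadjusted p-value under 0.05, the 5 genes most correlated with NT5C2, overlapping genes at 1 TPM or more, and markers. The result of 1 marker list is not reported here. The members and lists were chosen with earlier results of these data known. Each alternative changed 1 choice: a pseudocount of 0.1, dropping the filter or asking for a mean of at least 5 TPM, median-of-ratios rescaling, quantile normalization, TPM without mitochondrial transcripts, blocking on the replicate number, no variance trend, robust moderation, and leaving out each sample. Leaving out TM replicates 1 and 2 together was added after the data were seen.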

Additional observations from a re-analysis of the deposited data

How the results depend on the processing

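The number of members called was 0 under all 16 alternatives, and NT5C, NT5C3B, NT5DC1 and NT5DC3 kept their direction in each. The log2 difference of NT5C2 turned positive after median-of-ratios rescaling (0.072) and quantile normalization (0.031), that of NT5DC2 after the former (0.0099). That of NT5C3A turned negative without mitochondrially encoded genes (-0.047), without TC replicate 1 (-0.026) and without TM replicate 3 (-0.11), within a range of -0.11 to 0.10 when each sample was left out. That of NT5M turned negative without TC replicate 2 (-0.0053), within a range of -0.0053 to 0.12. The log2 difference of the NT5C2 to HPRT1 ratio became 0.086 without TC replicate 3, within a range of -0.25 to 0.086. Under a mean of at least 5 TPM no value could be given for NT5M. The median of the members moved to 0.13 after median-of-ratios rescaling and 0.11 after quantile normalization, while that of all genes moved from -0.14 to 0.049 and 0.014. The number of all genes called, 19 as reported, was 7 with a pseudocount of 0.1, 1 without a filter, 6 after median-of-ratios rescaling, 4 after quantile normalization, 12 without a trend, 47 with robust moderation, 1 to 17 when a sample was left out, and 195 without TM replicates 1 and 2, where 1 TM sample remained. The causes were not tested.

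With the replicate number as a block (paired by number), 1 gene was called, the log2 difference of NT5C2 stayed -0.13 (limma adjusted p = 0.761) and 0 members were called. Deviations of same-numbered TC and TM samples correlated at 0.21, -0.12 and -0.16 across genes, and not every sample correlated best with its own number, so the numbers were not taken as pairs. Whether samples of the 2 zones share a tumor cannot be told from these values. TPM hold no read depth, and for NT5M, at 1.56 to 2.01 TPM, the precision could not be judged beyond the spread of 3 values per group.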

Other observations

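Among the pathway genes, MTAP, which splits methylthioadenosine into adenine and a sugar phosphate, had values of 0.01, 0.83 and 0 TPM for TC in order of replicate number, against 0.01, 0 and 0 TPM for TM, whereas APRT, which reuses adenine, was at 138 to 181 TPM. MTAP was chosen after its values were seen.

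Some genes of different enzyme classes had the same or the opposite order across the TC samples, as seen after the values were known. NT5E, NT5C2, NT5DC1 and CMPK1 (63.6, 50.8 and 40.5 TPM), which phosphorylates UMP and CMP, were each highest in replicate 1 and lowest in replicate 3 among the TC samples. NT5C, TK1 (126, 136 and 154 TPM) and GUK1 (318, 359 and 403 TPM), the kinase of GMP, had the opposite order. Other genes had neither order, such as NT5C3B, NT5DC3 and PNP, which were lowest in TC replicate 2. The share of all genes with either order was not counted. The mitochondrially encoded share of TPM was 8.82% in TC replicate 1, 6.08% in TC replicate 2 and 6.30% in TC replicate 3, below the 9.23%, 10.5% and 11.1% of the TM samples, and its part in these levels was not tested.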
